A study of Mus musculus with 33 samples.

Results

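The 9 genes described here, which neurons induce or use when they are active, were Npas4, Arc, Homer1, Nptx2, Bdnf, Inhba, Vgf, Scg2 and Pcsk1. They were taken by gene symbol from a table of 21565 genes, and all 9 of them were found in it. The tissue was frontal cortex of adult male mice on a C57BL/6J background, sequenced one mouse per library in 33 libraries. WT mice were free to sleep (control sleep, CS, n = 6), were kept awake on a slow treadmill for 6 hr (SD, n = 7), or were kept awake for 4 hr and then left to recover for 2 hr (RS, n = 7). Mef2c f/f mice carry loxP sites around exon 11 of Mef2c in both alleles and no Cre (CS, n = 4, SD, n = 3). Mef2c-cKO mice carry the same floxed alleles together with Cre driven by the Camk2a promoter (CS, n = 3, SD, n = 3), which is active in forebrain excitatory neurons. Some Mef2c-cKO mice also had a single deleted allele in tail samples. Cells of the cortex without Cre keep the gene, with a single intact copy in those mice. The paper says that developmental effects of this lower dosage, in any cell type, may play a part in their transcriptome. All tissue was taken at the same time of day.

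A count of these transcripts is a common readout of recent neuronal activity, because calcium entry turns on their genes within minutes to hours. Npas4 encodes a transcription factor, Arc and Homer1 encode proteins of the excitatory synapse, and Nptx2 encodes a secreted protein that gathers AMPA receptors. Bdnf and Inhba encode secreted ligands, the neurotrophin BDNF and the beta A chain of activin, while Vgf and Scg2 encode granins that are cut into peptides by convertases such as the product of Pcsk1. In the cortex these products adjust the strength of synapses and the balance of excitation and inhibition. MEF2C, the factor deleted in the Mef2c-cKO mice, is itself an activity-regulated transcription factor of excitatory neurons.

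Recovered totals ran from 18935045 to 249046089 reads per library, and each value below is in CPM, a library's read counts scaled to 1000000 reads, rescaled between libraries by the median ratio over 11570 genes. The listed genes summed to 1000000 CPM in Mef2c f/f and Mef2c-cKO libraries and to 925580 to 985958 CPM in the WT libraries, so levels of WT and the other mice are given side by side without a test. Differentially expressed genes (DEGs, also written as called) had an adjusted p no higher than 0.05 in limma and a log2 fold change of 0.3 or more in size. A difference between the responses of genotypes was called on the adjusted p alone. Libraries also differed in how log2 values, less each gene's mean over all WT libraries, ran with the GC content of genes. Spearman's rho across genes was -0.77 to -0.15 in WT CS, -0.01 to 0.77 in WT SD and -0.37 to 0.64 in WT RS. Each rho is thus relative to the other WT libraries. Mef2c, measured over the whole gene, was not called between Mef2c-cKO and Mef2c f/f mice (log2 difference 0.27 ± 0.20 SE in CS and 0.05 ± 0.13 in SD), and since only exon 11 is deleted this value does not check the deletion. In bulk tissue, fewer or more cells of a type and less or more RNA per cell cannot be told apart. The 5 excitatory neuron markers summed to 1189 or more in each library and none was at 0.

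RefSeq promoters (GRCm38.p6, 250 bases before to 50 bases after each start) were at hand for 6 of the 9 genes, with 13 starts in all, 7 of them in Bdnf. Arc, Nptx2 and Vgf had no entry. The full cAMP response element TGACGTCA, a site of CREB, was in 2 of the 13, those of Scg2 and Pcsk1. It was in 1.79% of all 32851 promoters, both strands searched. The shorter core TGACG was in 5 of the 13, those of Scg2, Pcsk1 and Npas4 and a start each of Bdnf and Homer1. Of all promoters 20.8% held it. The MEF2 consensus was in 1 of the 13, that of Inhba, and in 3.19% of all promoters. The 250 bases before the start are shown for Scg2, Pcsk1 and Inhba, with the match in capitals. These 3 hold the full sites of the 2 factor families that bear on activity and on the deletion.
Scg2, chr1:79440027-79440276, minus strand, the match beginning 68 bases before the start: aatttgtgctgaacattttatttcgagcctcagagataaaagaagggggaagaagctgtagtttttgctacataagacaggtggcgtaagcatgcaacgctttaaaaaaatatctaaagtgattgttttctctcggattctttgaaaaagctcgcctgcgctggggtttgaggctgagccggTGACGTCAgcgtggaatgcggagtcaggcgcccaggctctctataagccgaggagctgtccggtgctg
Pcsk1, chr13:75089607-75089856, plus strand, the match beginning 78 bases before the start: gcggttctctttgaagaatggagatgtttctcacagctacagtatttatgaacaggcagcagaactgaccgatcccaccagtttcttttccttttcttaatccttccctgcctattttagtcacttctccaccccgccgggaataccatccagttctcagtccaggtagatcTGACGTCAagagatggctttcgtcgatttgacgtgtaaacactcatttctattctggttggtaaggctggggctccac
Inhba, chr13:16011601-16011850, plus strand, the match beginning 96 bases before the start: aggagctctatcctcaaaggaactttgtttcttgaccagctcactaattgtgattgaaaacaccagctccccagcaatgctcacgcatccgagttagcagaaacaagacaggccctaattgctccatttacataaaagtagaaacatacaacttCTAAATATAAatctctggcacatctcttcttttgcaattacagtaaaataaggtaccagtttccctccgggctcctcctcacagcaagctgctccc

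The first comparison asked what 6 hr without sleep does to these genes in WT mice. Of the 9, 4 rose from CS to SD, Vgf 3.25-fold, Arc 2.26-fold, Npas4 1.60-fold and Nptx2 1.44-fold, and Pcsk1 fell to 0.723 of its CS level. Homer1, Bdnf, Inhba and Scg2 were not called. Thus 5 of 9 were DEGs (4 higher and 1 lower), against 45.1% of 12913 genes tested (24.6% higher and 20.5% lower). That share is near the background, and the 9 had a median log2 fold change of 0.02, against 0.04 for all genes tested.

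Npas4, a transcription factor that neurons induce on depolarisation, lies on chromosome 19 (4984355-4990316, minus strand, GRCm38). Its level in WT CS was 4.20 at the lowest, 5.14 at the median and 7.32 at the highest, and in SD it was 6.998, 9.32 and 13.5. Of the 7 SD libraries, 5 lay above every CS library. From CS to SD it rose by 0.68 ± 0.15 (log2, SE, adjusted p = 0.00454, limma). After recovery sleep Npas4 was at 8.81, 10.8 and 15.6, and all 7 RS libraries lay above all 6 CS libraries, which held for 1.7% of genes. The rise from CS to RS was 0.97 ± 0.15 (adjusted p = 0.0329, limma), and by its unadjusted p Npas4 was first of 12752 genes.

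Arc, whose product drives removal of AMPA receptors from synapses, lies on chromosome 15 (74669083-74672570, minus strand). It had levels of 18.3, 32.5 and 54.6 in WT CS (lowest, median and highest) and of 58.8, 83.2 and 94.9 in SD. The groups did not overlap, which held in this direction for 4.68% of genes. The rise was 1.18 ± 0.21 (adjusted p = 0.00137, limma). In RS Arc lay mostly among the CS values, at 29.4, 39.4 and 64.8, with 5 of 7 libraries inside the CS range, and CS to RS was not called (0.31 ± 0.24, adjusted p = 0.315, limma).

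Homer1, a scaffold that ties group I metabotropic glutamate receptors to the postsynaptic density, lies on chromosome 13 (93299635-93405129, plus strand). The short activity-induced form Homer1a and the long forms are summed in one value here, and 2 gene models on the same strand, Gm47075 and Gm47088, overlap the gene. Levels were 369, 496 and 727 in WT CS, 320.4, 455 and 484 in SD and 334, 416 and 572 in RS, and the 3 groups overlapped. The change from CS to SD was -0.30 ± 0.15 (adjusted p = 0.0971, limma) and that from CS to RS -0.24 ± 0.15 (adjusted p = 0.209).

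Nptx2, the neuronal pentraxin also known as Narp, lies on chromosome 5 (144545902-144557478, plus strand). Its levels were 18.7, 22.4 and 30.6 in WT CS, 27.7, 33.1 and 43.9 in SD and 28.4, 35.1 and 56.3 in RS. Of 7 SD libraries 6, and of 7 RS libraries 6, lay above every CS library. It rose by 0.53 ± 0.13 in SD (adjusted p = 0.00607, limma) and by 0.70 ± 0.16 in RS (adjusted p = 0.0333).

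Neither secreted ligand was called in WT mice. Bdnf (chromosome 2, 109674700-109727007, plus strand), the ligand of TrkB, read 27.6, 32.8 and 45.0 in CS, 26.2, 31.1 and 39.2 in SD and 29.1, 35.0 and 39.7 in RS. Its change was -0.07 ± 0.12 in SD (adjusted p = 0.646, limma, 95% interval -0.33 to 0.19) and 0.05 ± 0.11 in RS (adjusted p = 0.744). Transcripts from the several Bdnf promoters are summed in this value. Antisense genes overlap Bdnf (Gm45346) and Inhba (Gm48444), and the strand setting of the counting is not given in the sources used here, so reads of the partners cannot be told apart. B230303A05Rik also overlaps Inhba. Inhba (chromosome 13, 16011851-16031621, plus strand), the activin subunit, read 10.4, 14.9 and 28.0 in CS, 12.7, 16.1 and 18.4 in SD and 13.8, 16.9 and 17.9 in RS, with no call in SD (0.02 ± 0.18, adjusted p = 0.931) or RS (0.11 ± 0.18, adjusted p = 0.624). In both genes all 3 WT groups overlapped.

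The granins parted. Vgf (chromosome 5, 137026392-137033351, plus strand), the precursor of several neuropeptides, read 8.08, 45.7 and 91.4 in CS, 67.5, 126 and 133 in SD and 63.5, 101 and 182 in RS. Of 7 SD libraries 6, and of 7 RS libraries 5, lay above every CS library, and the 3 lowest CS values (8.08, 16.7 and 31.8) belonged to CS replicates 2, 1 and 3. Vgf rose by 1.70 ± 0.44 in SD (adjusted p = 0.0079, limma) and by 1.59 ± 0.46 in RS (adjusted p = 0.0397). Scg2 (chromosome 1, 79434669-79440120, minus strand), the precursor of secretoneurin, read 133, 209 and 323 in CS, 174, 199 and 271 in SD and 172, 213 and 312 in RS. The groups overlapped and neither change was called (0.00 ± 0.19, adjusted p = 0.986, in SD and 0.16 ± 0.21, adjusted p = 0.542, in RS).

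Pcsk1 (chromosome 13, 75089826-75134861, plus strand), the convertase PC1/3 that cuts granins and proneuropeptides, was the gene that fell. It read 72.0, 88.2 and 149 in CS, 53.8, 66.3 and 79.4 in SD and 60.4, 70.9 and 100.04 in RS, and 5 of 7 SD libraries lay below every CS library. The change was -0.47 ± 0.16 in SD (adjusted p = 0.024, limma) and -0.28 ± 0.16 in RS (adjusted p = 0.18). With CPM as deposited, where the median of all genes was 0.30 and 6106 genes were called higher and 801 lower (against 3183 and 2643 here), Pcsk1 was not called (-0.19, adjusted p = 0.194), Bdnf turned to 0.20, and Arc, Npas4, Nptx2 and Vgf were called as before.

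**Figure D1:**
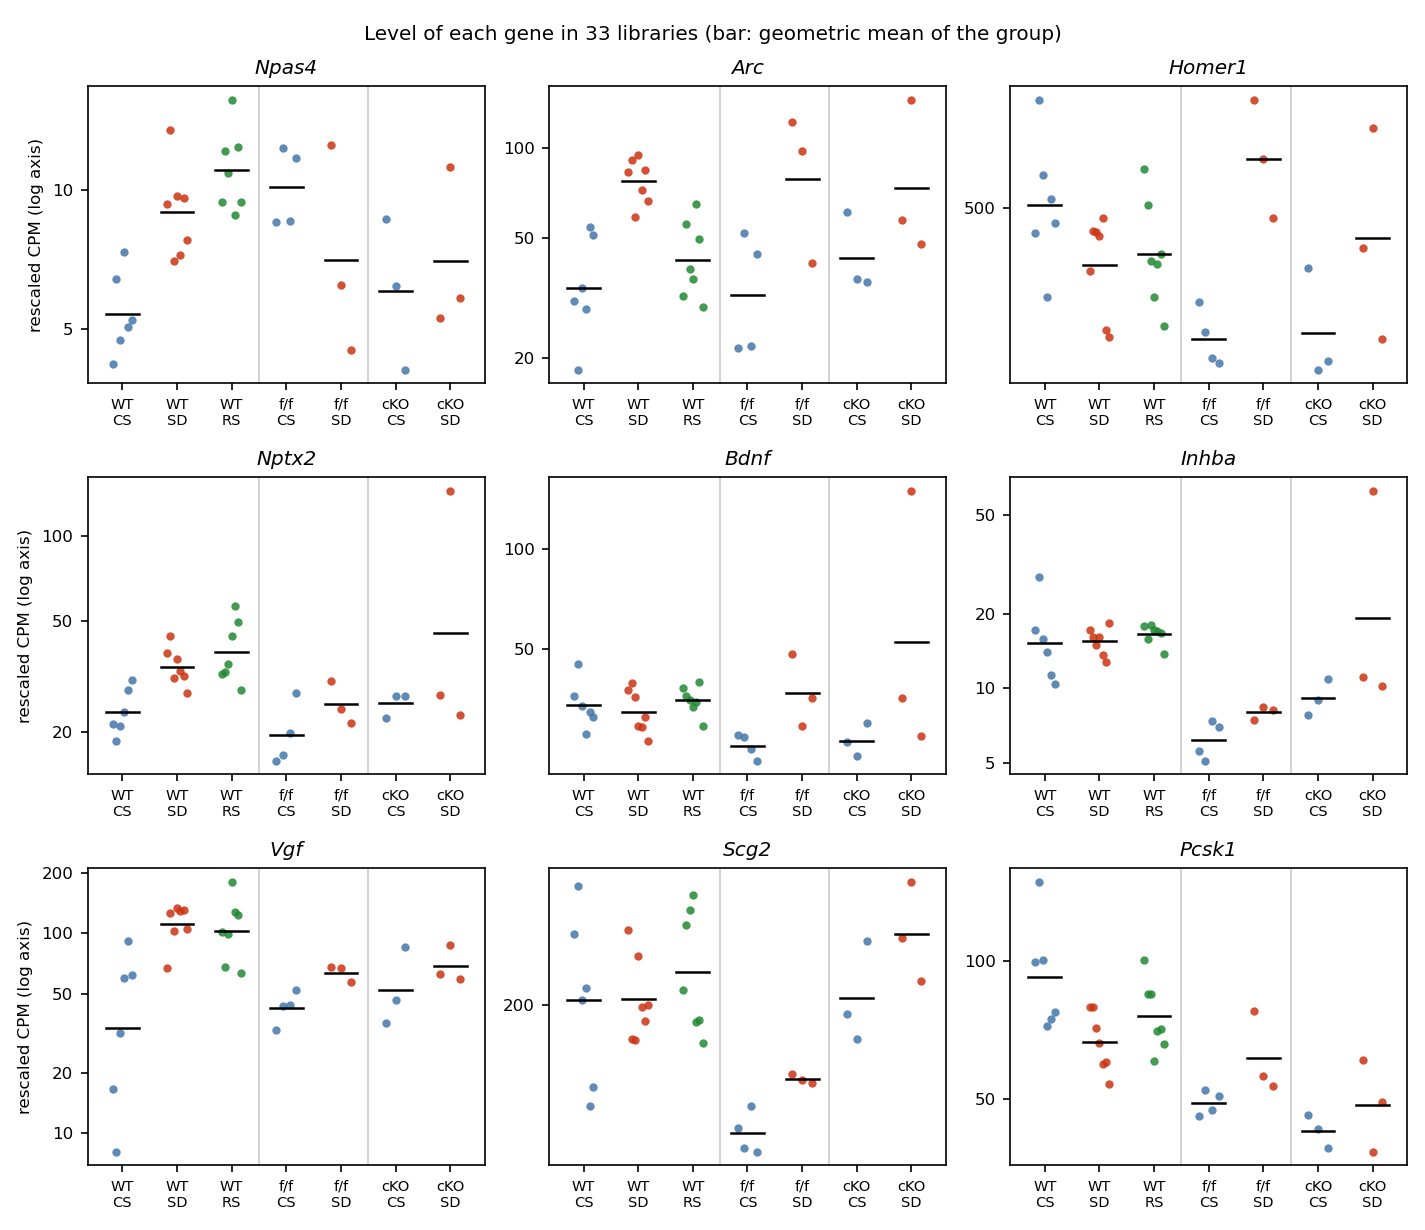
Level of each gene (rescaled CPM, log axis) in the 33 libraries, one point per mouse, with a bar at the geometric mean of each of the 7 groups; blue is CS, red SD and green RS. Arc in WT SD sits above all WT CS points, Npas4 in WT RS does so too, and 1 Mef2c-cKO SD mouse stands far above the rest for Bdnf, Nptx2 and Inhba.

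The 4 genes that rose in WT SD had the highest GC content of the 9. Median transcript GC content was 64.5% in Vgf, 59.0% in Arc, 58.3% in Nptx2 and 56.1% in Npas4, and 40.4% to 47.0% in the other 5. With each library's trend with GC content and transcript length removed, Arc (0.70, adjusted p = 0.00455, limma) and Vgf (0.96, adjusted p = 0.0242) were still called, Npas4 (0.37, adjusted p = 0.119), Nptx2 (0.08, adjusted p = 0.636) and Pcsk1 (-0.08, adjusted p = 0.522) were not, and Bdnf was called higher (0.39, adjusted p = 0.0127). Without CS replicates 1, 2 and 3, the WT CS libraries with the most negative GC trend, an alternative chosen after seeing the data, Arc (0.84), Npas4 (0.59) and Vgf (0.67) were called. Of all genes 20.5% were called with the trends removed and 17.8% without these libraries, against 45.1% as analysed. Arc and Vgf were therefore higher in SD under all 3 settings.

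**Figure D2:**
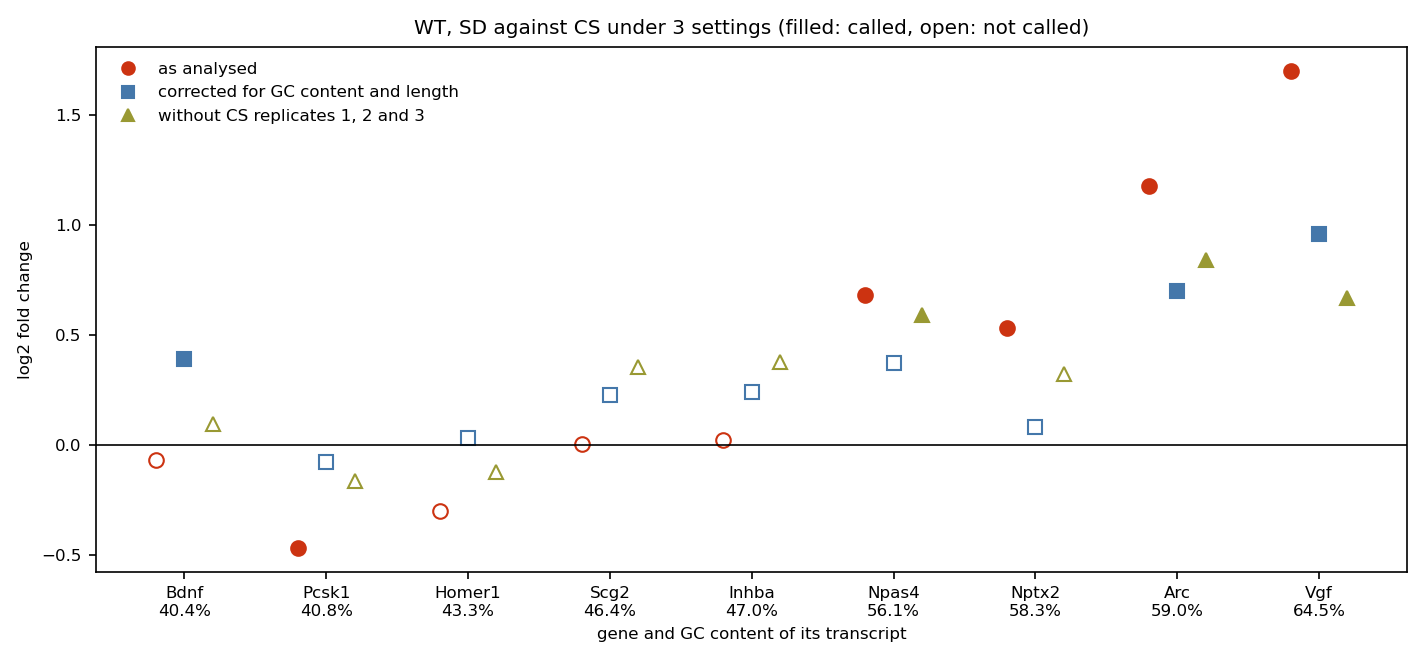
Log2 fold change from WT CS to SD for the 9 genes, ordered from low to high GC content of the transcript, under 3 settings: as analysed (circles), with the trends in GC content and length removed (squares) and without CS replicates 1, 2 and 3 (triangles). Filled symbols are called; Arc and Vgf are filled in all 3, and Bdnf is filled after the correction alone.

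After recovery sleep 3 of 9 genes were DEGs against CS, Vgf at 3.02-fold, Npas4 at 1.95-fold and Nptx2 at 1.63-fold, all higher, against 17.5% of 12752 genes (9.28% higher). No member was called by limma between SD and RS directly, where 0.0232% of 12921 genes were called. An unadjusted p under 0.05 was found for 1 of 9, Arc, and for 683 of the 12921 genes. Arc had a log2 change of -0.87 ± 0.16 between SD and RS (adjusted p = 0.129, limma, the seventh lowest p of all genes). DESeq2 on the recovered reads called it (-0.83, adjusted p = 0.00169), with 0.418% of genes called, and edgeR called no member. For Npas4, Nptx2 and Vgf the change between SD and RS was 0.29, 0.17 and -0.11, with adjusted p-values from 0.975 to 0.986. The RS calls depended on single libraries, and the number called fell to 0 without CS replicate 3, without any one of RS replicates 3, 4, 5, 6 and 12, and without CS replicates 1, 2 and 3 together, and to 1 without CS replicate 1 or 2. In those fits of all genes 0 were called, or 3 without RS replicate 4, 223 without CS replicate 1 and 98 without CS replicate 2. With 1 library left out the changes stayed at 0.89 to 1.05 for Npas4, 0.61 to 0.77 for Nptx2 and 1.19 to 1.88 for Vgf, with adjusted p-values up to 0.0749, 0.0749 and 0.0831. With CPM as deposited the same 3 were called, with 2350 genes higher and 315 lower against 1184 and 1048 here. With GC and length trends removed Npas4 (0.71, adjusted p = 0.0324) and Bdnf (0.39, adjusted p = 0.0439) were called, and Nptx2 (0.32, adjusted p = 0.103) and Vgf (0.99, adjusted p = 0.0581) were not. Of all genes 5.47% were called in that fit.

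Among genes of the same pathways, members were called in both directions in WT SD, where 24.6% of all genes were called higher and 20.5% lower. Of 11 Homer, Arc and group I mGluR partners, 5 rose, among them Homer3 (0.69) and the scaffold Shank3 (0.66), and 2 fell, among them the receptor Grm5 (-0.70). Of 6 pentraxins and AMPA receptor subunits, Nptx1 rose (0.41) and Gria2 (-0.64), Gria3 (-0.79) and Gria4 (-0.93) fell. Of 12 activin genes tested 4 rose and 3 fell, with Inha (0.66) and the inhibitory Smad7 (0.41) higher and the receptors Acvr2a (-0.46) and Acvr1 (-0.38) lower. Of 8 granin and processing genes, Pcsk1n, which encodes an inhibitor of PC1/3, rose by 2.95 and Pcsk2 (-0.66), Scg3 (-0.49) and Pam (-0.35) fell. Of 7 neurotrophin genes tested Furin rose (0.77) and Ntrk3 fell (-0.51), and of the 2 Npas4 partners Arnt fell (-0.35). Of 14 other activity-induced effectors 4 rose, among them Gadd45b (1.33) and Gadd45g (1.19), and 3 fell, among them Nrn1 (-0.53). The median log2 fold change of these lists ran from -0.41 for the pentraxin list to 0.23 for the Homer list, beside 0.04 for all genes. In RS, where 17.5% of all genes were called, Pcsk1n (2.34), Gadd45g (0.98), Homer3 (0.67), Pim1 (0.66), Furin (0.61), Shank3 (0.59) and Camk2b (0.33) were higher than in CS, and those lower included Gria4 (-0.68), Nrn1 (-0.49), Pcsk2 (-0.48), Ntrk3 (-0.40), Arnt (-0.34) and Acvr1 (-0.32). None was called between SD and RS. The pathway values are from the fit as analysed and were not followed with GC and length trends removed. With the trends removed 20.5% of all genes were called in SD, against 45.1%, and 5.47% in RS, against 17.5%.

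Markers of cells next to the frontal cortex moved with the same contrast. The summed level of 4 meningeal fibroblast markers was 8.4 to 34.1 in WT CS, 37.0 to 62.8 in SD and 13.6 to 36.9 in RS, and 2 of the 4 were called higher in SD. The 4 striatal neuron markers summed to 143 to 324 in CS, 246 to 539 in SD and 260.4 to 436 in RS, and 2 were called higher in SD and 2 in RS. Of 6 inhibitory neuron markers 2 were called higher in SD and 2 in RS, and of 5 astrocyte markers 2 in SD and 1 in RS. Of all genes 24.6% were called higher and 20.5% lower in SD, and 9.28% and 8.22% in RS. The astrocyte sum had a median of 725 in CS, 627 in SD and 619 in RS. In SD 1 of 4 oligodendrocyte and 1 of 3 pericyte markers were called lower, and 1 of 3 endothelial markers higher. Of 4 microglial markers 1 was called higher and 1 lower in SD. The part of any of these in the WT results was not tested. Excitatory neuron markers had 1 of 5 called lower in SD and 1 in RS. Their sum had a median of 1488 in CS, 1599 in SD and 1504 in RS.

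In Mef2c f/f mice the same 6 hr of sleep loss gave its lowest p-value among the 9 for Homer1 and its largest change for Arc. Homer1 read 362, 327, 299 and 293 in CS (replicates 1 to 4) and 728, 592 and 484 in SD (replicates 1 to 3), a 1.86-fold difference with no overlap. No gene of the 9 was called by limma or edgeR, against 0.0403% of 12410 genes by limma. An unadjusted p under 0.05 was found for 7 of 9, and for 2111 of the 12410 genes. Homer1 was closest (0.89 ± 0.14, adjusted p = 0.0568, fourteenth of all genes by p). DESeq2 on the recovered reads called 4, Homer1 (0.91, adjusted p = 3.63e-07), Vgf (0.57, adjusted p = 0.0106), Scg2 (0.31, adjusted p = 0.0258) and Bdnf (0.56, adjusted p = 0.0289), against 3.83% of genes. Without CS replicate 1 limma called 2, Homer1 (0.95, adjusted p = 0.026) and Vgf (0.45, adjusted p = 0.0441), and with GC and length trends removed it called the same 2 (0.81, adjusted p = 0.0302, and 0.61, adjusted p = 0.0144). Of all genes 4.75% were called without CS replicate 1 and 0.808% with the trends removed.

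Of the 9 genes, 6, namely Homer1, Bdnf, Vgf, Inhba, Scg2 and Pcsk1, were higher in every SD mouse than in every CS mouse of this genotype, a pattern shown by 8.53% of genes. Vgf read 32.8, 43.2, 43.9 and 52.3 in CS and 67.7, 66.9 and 56.8 in SD. Bdnf read 27.3, 26.9, 24.8 and 22.9 in CS and 48.2, 29.1 and 35.5 in SD. Scg2 read 122, 112, 133 and 111 in CS and 151, 148 and 146 in SD. Inhba read 5.60, 5.13, 7.41 and 7.01 in CS and 7.49, 8.44 and 8.19 in SD, and Pcsk1 read 46.0, 52.4, 47.2 and 50.7 in CS and 77.5, 56.1 and 53.3 in SD. The log2 changes of these 5 were 0.58, 0.52, 0.32, 0.34 and 0.32.

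Arc, Nptx2 and Npas4 overlapped between CS and SD in Mef2c f/f mice. Arc read 21.6, 52.1, 21.8 and 44.4 in CS and 122, 97.7 and 41.2 in SD, so 2 of 3 SD mice were above all CS mice and the third was not (1.27 ± 0.40, adjusted p = 0.178, limma). Nptx2 read 15.9, 16.6, 19.96 and 27.7 in CS and 30.4, 24.2 and 21.6 in SD (0.35 ± 0.19, adjusted p = 0.358). Npas4 read 8.49, 12.3, 8.54 and 11.7 in CS and 12.5, 6.22 and 4.49 in SD (-0.49 ± 0.28, adjusted p = 0.398).

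**Figure D3:**
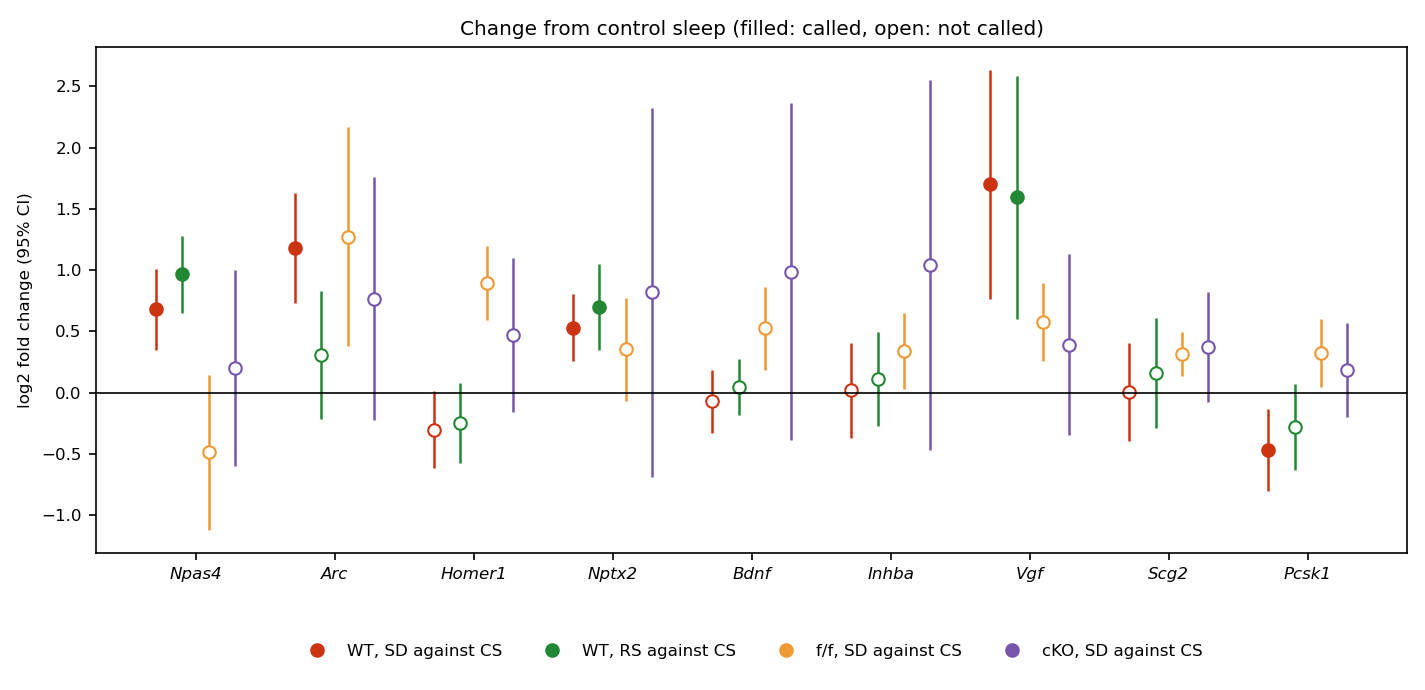
Log2 fold change from CS with its 95% confidence interval (limma) for the 9 genes in WT SD, WT RS, Mef2c f/f SD and Mef2c-cKO SD; filled circles are called. The 2 WT contrasts share the CS mice. Vgf, Npas4 and Nptx2 are filled in both WT contrasts, Homer1 lies at 0.89 in Mef2c f/f and below 0 in WT, and the Mef2c-cKO intervals of Nptx2, Bdnf and Inhba are the widest.

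Whether the response to sleep loss differed between Mef2c f/f and WT mice was tested as the difference of the 2 responses. Of the 9 genes 3 differed, 2 higher and 1 lower, against 15.1% of 13106 genes (9.35% higher and 5.78% lower). The Homer1 response was higher in Mef2c f/f by 1.19 ± 0.24 (adjusted p = 0.0154, limma), the Pcsk1 response higher by 0.79 ± 0.25 (adjusted p = 0.0407) and the Npas4 response lower by 1.17, with a value of -1.17 ± 0.32 (adjusted p = 0.0297). The Bdnf response missed the threshold (0.59 ± 0.21, adjusted p = 0.0557), and the Arc responses were close, 1.27 and 1.18, with an interval for their difference of -0.86 to 1.05. With the GC and length trends removed Homer1 was the one member called (0.79, adjusted p = 0.0321). It was also the one called without WT CS replicates 1, 2 and 3 (1.02, adjusted p = 0.0225), and it had an adjusted p of 0.0511 without Mef2c f/f SD replicate 1. Of all genes 2.32% were called with the trends removed and 4.04% without those WT libraries. The number of the 9 called fell to 1 without any one of Mef2c f/f CS replicates 2 and 4 and SD replicates 1 and 3. In those fits 0.175% to 2.09% of all genes were called. With CPM as deposited, which called 507 genes higher and 2919 lower against 1225 and 758 here, Homer1 and Npas4 were called. Among pathway genes the responses of Gria2 (0.71), Gria3 (0.74), Gria4 (0.95), Grm5 (0.76) and Nrn1 (0.99) were higher in Mef2c f/f mice, and those of Pcsk1n (-3.02), Gadd45g (-1.13), Homer3 (-0.88) and Furin (-0.65) lower. These pathway values too were not followed with GC and length trends removed. Genotype and the difference in CPM sums cannot be told apart in the levels of WT and Mef2c f/f mice, whereas each response was taken within one genotype.

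In Mef2c-cKO mice no member was called from CS to SD by limma, edgeR or DESeq2, and limma called 0.0234% of 12810 genes. None of the 9 had an unadjusted p under 0.05, which was found for 391 of the 12810 genes. In 1 mouse, SD replicate 6, Inhba, Bdnf, Nptx2 and Arc stood far above the rest. Its Bdnf level was 151, against 35.4 and 27.1 in the other 2 SD mice and 26.0, 23.5 and 29.7 in CS. Nptx2 read 145 in it, against 27.3 and 23.0 in SD and 22.5, 26.9 and 27.0 in CS. Inhba read 62.5, against 11.2 and 10.2 in SD and 7.82, 9.01 and 10.9 in CS. Set against the median of the other 5 Mef2c-cKO libraries, Inhba was higher by 2.55 (log2), Bdnf by 2.45 and Nptx2 by 2.41, ranks 13, 17 and 18 of 13511 genes.

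The same mouse was the highest of the 6 for Arc (145, against 35.6 to 61.2), Homer1 (659.8, against 287 to 436), Npas4 (11.2, against 4.09 to 8.66), Scg2 (329, against 174 to 262) and Vgf (87.3, against 35.7 to 85.3). It was the lowest for Pcsk1, at 38.4 against 39.2 to 60.8. Thus 8 of 9 members were above every other Mef2c-cKO library, as were 21.9% of all genes and 26 of 61 pathway genes expressed. Ptgs2, the inducible cyclooxygenase of the effector list, read 126 in it against 9.44 to 21.6, and Fos, which was picked after its values were seen, 45.0 against 4.48 to 11.1. Its inhibitory neuron markers summed to 824 rescaled CPM, against 706 and 712 in the other SD mice and 629 to 759 in CS. Its excitatory neuron markers summed to 1541 and its astrocyte markers to 963, the lowest and the highest of the 3 Mef2c-cKO SD libraries. Ranges were 1541 to 1743 and 780.4 to 963 in SD, and 1371 to 1728 and 715 to 2340 in CS. Its microglial, pericyte and striatal neuron sums were also the highest of the 3 SD libraries, and its oligodendrocyte sum the lowest. The part of any of these in its values was not tested.

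With that mouse the CS to SD changes were 1.04 ± 0.64 for Inhba, 0.99 ± 0.58 for Bdnf, 0.82 ± 0.64 for Nptx2 and 0.77 ± 0.42 for Arc. Without it they were 0.21, 0.23, -0.02 and 0.28, and the largest of the 9 was Pcsk1 at 0.35. Homer1 changed from 0.47 to 0.20 and Npas4 from 0.20 to -0.11. The intervals with the mouse were wide, from -0.39 to 2.36 for Bdnf, and cover both no change and a change as large as that of Mef2c f/f mice.

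**Figure D4:**
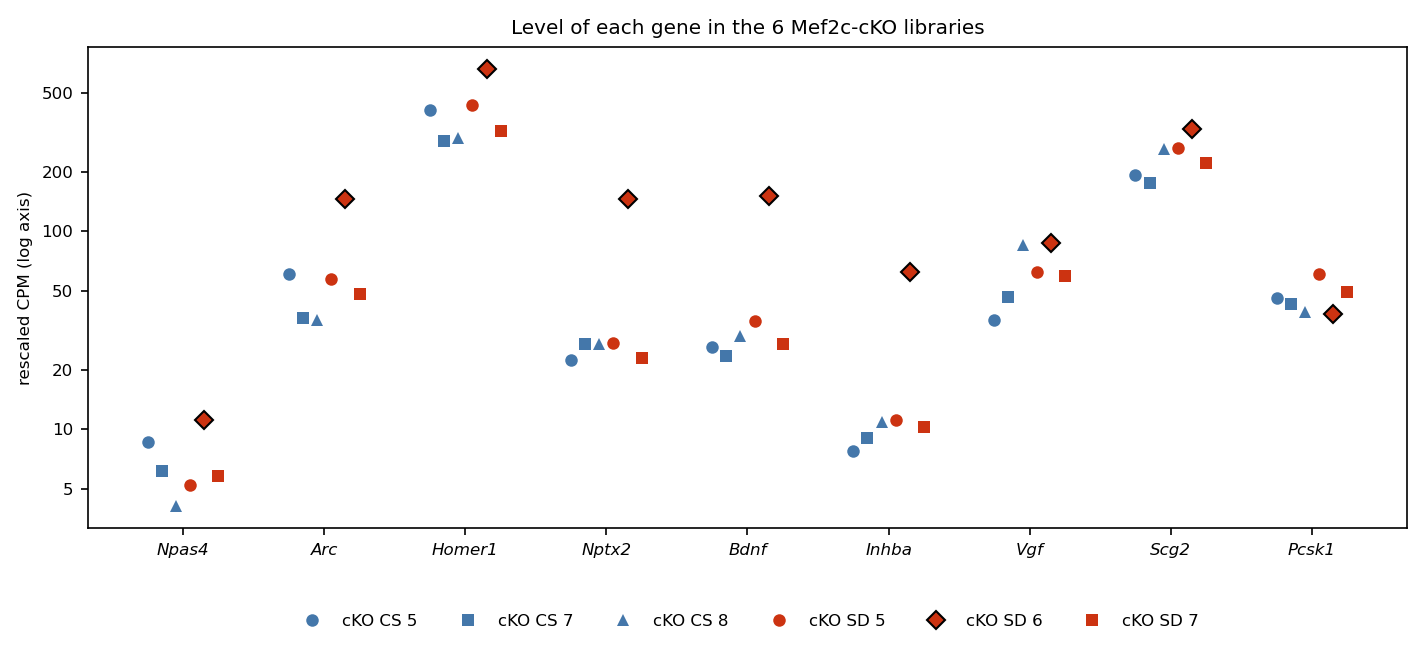
Level of each gene (rescaled CPM, log axis) in the 6 Mef2c-cKO libraries, one symbol per mouse, with CS in blue and SD in red. SD replicate 6, the outlined diamond, lies at 151 for Bdnf, 145 for Nptx2 and 62.5 for Inhba, above all other mice for 8 genes and below them for Pcsk1.

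The difference between the Mef2c-cKO and Mef2c f/f responses was called for no member by limma, edgeR or DESeq2, and limma called 0.00778% of 12860 genes. None of the 9 had an unadjusted p under 0.05, which was found for 1005 of the 12860 genes. The estimates were -0.50 for Arc, -0.42 for Homer1, 0.46 for Bdnf and 0.70 for Inhba. Without Mef2c-cKO SD replicate 6, Bdnf (-0.29), Nptx2 (-0.37) and Inhba (-0.13) turned below 0 and Arc went to -0.99. The interval of the Homer1 difference, -1.09 to 0.25, includes no difference and a loss of the whole Mef2c f/f response.

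Between genotypes Scg2 was the member that was called. In CS it read 193, 174 and 259 in Mef2c-cKO against 122, 112, 133 and 111 in Mef2c f/f, 1.73-fold higher (0.79 ± 0.14, adjusted p = 0.0153, limma). In SD it read 262, 329 and 219.8 against 151, 148 and 146, 1.79-fold higher (0.84 ± 0.13, adjusted p = 0.00489). Thus 1 of 9 was called in each state, higher in both, against 7.67% of 12681 genes in CS (3.17% higher) and 15.1% of 12774 in SD (9.1% higher). No overlap with Mef2c-cKO higher was seen in CS for Scg2 and Inhba, as for 13.4% of genes, and in SD for the same 2, as for 21.6% of genes. In CS mean Scg2 was 214 in WT, 209 in Mef2c-cKO and 119 in Mef2c f/f mice, and in SD 207, 270 and 148. Mean Inhba in CS was 16.1, 9.25 and 6.29 in the same order. Mef2c f/f mice were thus the lowest of the 3 genotypes for both genes, and WT levels were not tested against the others. The Scg2 call in CS was lost without Mef2c f/f CS replicate 2 (0.76, adjusted p = 0.0617), and it held with GC correction (0.76, adjusted p = 0.00465). In SD it held without replicate 6 (0.69, adjusted p = 0.000242).

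Inhba was 1.44-fold higher in Mef2c-cKO CS (0.52 ± 0.17, adjusted p = 0.0852, limma), at 7.82, 9.01 and 10.9 against 5.60, 5.13, 7.41 and 7.01, and DESeq2 (adjusted p = 0.0482) and CPM as deposited (adjusted p = 0.0388, with 882 genes called higher and 346 lower against 402 and 571 here) called it. In SD the same scaling called 1694 genes higher and 492 lower against 1162 and 765 here, and Scg2 alone of the 9. Npas4 was lower in Mef2c-cKO CS, at 8.66, 6.18 and 4.09 against 8.49 to 12.3 (-0.70 ± 0.24, adjusted p = 0.0995), and DESeq2 called it (adjusted p = 0.0478). In CS DESeq2 called 16.6% of all genes and limma 7.67%. In SD without Mef2c-cKO replicate 6, Homer1 was called lower (-0.67, adjusted p = 0.0142) and Inhba higher (0.39, adjusted p = 0.0223), so the count rose from 1 to 3. Of all genes 19% were called without that mouse, against 15.1% with it. Astrocyte markers summed to 2340 in Mef2c-cKO CS replicate 8, the mouse with the highest Scg2 of that group, and to 545 to 756 in the other 6 CS libraries of both genotypes; without it the Scg2 difference was 0.62 (adjusted p = 0.0206). Microglial markers summed to 329 in that mouse and to 121 to 166 in the other 6 CS libraries of these genotypes. Meningeal fibroblast markers summed to 32.7 to 38.3 in Mef2c-cKO CS and 19.6 to 23.5 in Mef2c f/f CS with 2 of 4 called higher, and their part in the Scg2 difference was not tested. In SD, 3 of 4 microglial markers and 2 of 5 astrocyte markers were called higher in Mef2c-cKO mice, and 3 of 6 inhibitory neuron markers higher and 1 lower, whose part was likewise not tested.

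Among genes of prohormone processing, a minority of the list was called between genotypes. Pcsk2, the convertase PC2, was lower in Mef2c-cKO in CS (-0.60) and SD (-0.48), and Cpe, which trims the cut peptides, was higher (0.51 and 0.31). Of the 8 genes in this list 1 was called higher and 1 lower in CS, and 1 higher and 2 lower in SD. Arnt, a partner of NPAS4, was lower in both states (-0.51 and -0.39) and Arnt2 lower in SD (-0.37). The share of all genes called was 7.67% in CS and 15.1% in SD, and of the 11 Homer partners none was called in CS and 3 were called in SD, Homer3 higher (0.68), Shank1 (-0.34) and Shank2 (-0.36) lower. No activin gene was called in CS and 1 of 13 in SD, Smad3 (-0.41), while in the neurotrophin list Ntrk3 was lower in CS (-0.62) and Sorcs2 (0.56) was among those higher in SD. No gene of the pathway lists was called from CS to SD within either Mef2c genotype.

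The order of the 7 groups differed from gene to gene. The WT groups had the highest mean of Vgf (114 ± 23.9 SD in WT SD, n = 7), Pcsk1 (95.3 ± 28.9 in WT CS, n = 6) and Npas4 (11.2 ± 2.39 in WT RS, n = 7). Mef2c f/f SD was highest for Arc (86.8 ± 41.3, n = 3) and Homer1 (601 ± 122), and Mef2c-cKO SD for Bdnf (71.2 ± 69.2, n = 3), Nptx2 (65.1 ± 69.3), Inhba (28.0 ± 29.9) and Scg2 (270.2 ± 55.0). For Bdnf, Nptx2 and Inhba that place rested on SD replicate 6, since the other 2 Mef2c-cKO SD mice were below the mean of Mef2c f/f SD for Bdnf and of WT RS for Nptx2 and Inhba. Of 54 pairs of neighbouring groups in these orders, 49 overlapped in range and 9 differed in mean by more than the larger SD. Among those 9 were Mef2c f/f SD above CS, for Inhba and Scg2. Per kb of exon, rescaled CPM in WT CS was highest for Scg2, ran from 43.2 for Homer1 through 17.0 for Pcsk1, 15.1 for Vgf, 11.9 for Arc, 9.43 for Nptx2, 5.50 for Bdnf and 2.52 for Inhba to 1.33 for Npas4, a level comparison that rests on the exon lengths of the annotation.

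With the 7 group means removed, the genes most like each member across the 33 libraries (among 11570 genes, Pearson's r with Spearman's rho) were as follows. For Arc they were Fos (r = 0.84, rho = 0.85) and Nr4a1 (0.84 and 0.87), both immediate early transcription factors. For Homer1 they were Spred1 (0.88 and 0.90) and Fbxo33 (0.87 and 0.83). For Bdnf they were Ptgs2 (0.93 and 0.82) and Adamts1 (0.84 and 0.62), and without Mef2c-cKO SD replicate 6 these r fell to 0.72 and 0.45. Nptx2 was most like Hbegf (0.86 and 0.57) and Dusp4 (0.85 and 0.77), and Inhba like Trim2 (0.88 and 0.60) and P2ry14 (0.86 and 0.67), and these too fell without that mouse, to 0.55, 0.68, 0.69 and 0.66.

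Npas4 had the weakest partners, Grasp (0.61 and 0.61) and Dusp5 (0.59 and 0.61), and without Mef2c-cKO SD replicate 6 these r fell to 0.50 and 0.52. Vgf was most like Adgrb2 (0.93 and 0.85) and Fam43b (0.91 and 0.87), Scg2 like Ednrb (0.88 and 0.84) and Clmp (0.86 and 0.78), and Pcsk1 like B3galt2 (0.89 and 0.83) and Sema3a (0.88 and 0.83). Libraries share their GC trend and group sizes, so these are descriptions. Among the members themselves Bdnf with Inhba gave r = 0.82 over all 33 libraries and 0.36 without Mef2c-cKO SD replicate 6. In the same order Homer1 with Bdnf gave 0.67 and 0.64, and Homer1 with Pcsk1 gave 0.51 and 0.75. Bdnf with Pcsk1 gave 0.091 and 0.75, and Inhba with Scg2 gave 0.57 and 0.71. For Vgf with Pcsk1 r was -0.66 both with and without that mouse.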

How the data were processed

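RNA from frontal cortex of 33 mice was sequenced (stranded mRNA libraries, paired-end). The authors trimmed reads, aligned them to mm10 with STAR, counted unique reads per gene with HTSeq and deposited CPM computed in edgeR. The strand setting and the cause of the differing CPM sums are not given in the sources used here. All 711645 deposited values were whole multiples of 1 read (tolerance 0.01), so reads were recovered. CPM was rescaled by median ratios, filtered (CPM of 1 or more in every replicate of a compared group) and fitted as log2(value + 0.5) with limma 3.58.1 in R 4.3.3 across all genes, so folds of low genes are understated. Adjusted p-values are Benjamini-Hochberg. Alternatives used edgeR 4.0.16 and DESeq2 1.42.0 on recovered reads, other scaling, filters and pseudocounts, GC and length splines, replicate blocks and leaving out libraries. No replicate pair agreed within sampling noise. Code was tested on simulated counts. Every member is named. Partner genes are the 2 with the highest r. Of the 64 pathway genes in 7 lists, those named for a change passed the test. Ptgs2 was named for its level in Mef2c-cKO SD replicate 6, and Ptgs2 and Fbxo33 were also named as partner genes. Some list genes are not reported here. Members and lists were chosen with earlier results of these data known.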

Additional observations from a re-analysis of the deposited data

Results flagged for a closer look

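In WT SD, replicate 1 had a Vgf level of 67.5 rescaled CPM, the lowest of 7, with the next at 103; its gap to that library was 0.615 of the group's range. It was the 1 outlying value among 36 group and gene sets tested, where chance marks about 1 in 20. Groups with n = 3, Mef2c f/f SD and both Mef2c-cKO groups, were too small for this rule and were left out. Mef2c-cKO SD replicate 6 was therefore not examined by it. The response to sleep loss differed between Mef2c f/f and WT mice for Homer1 (1.19, log2), Npas4 (-1.17) and Pcsk1 (0.79), by a limma test of the difference itself, and with GC content and length trends removed Homer1 was the one still called.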

How the results depend on the processing

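Of 1548 values of the 9 genes under alternatives, 1468 kept their direction. In that direction 66 lost a call and 24 gained one. Below, percentages in brackets give the share of all genes called under the same setting. From WT CS to SD, 5 of the 9 were called (45.1%), and 3 with GC and length correction (20.5%). Without CS replicates 1, 2 and 3, chosen after seeing the data, 3 were called (17.8%). With 1 library left out, 5 to 6 were called (34.9% to 49.6%). From CS to RS 3 were called (17.5%), 1 with no filter on low values (1.99%), 0 without those 3 libraries (0%) and 0 to 3 with 1 left out (0% to 29.2%). From SD to RS DESeq2 called 1 (0.418%), and 0 to 1 were called with 1 library left out (0% to 0.0696%). In Mef2c f/f, DESeq2 called 4 (3.83%) and GC and length correction 2 (0.808%), and 0 to 2 were called with 1 left out (0% to 4.75%). Between Mef2c-cKO and Mef2c f/f in CS, CPM as deposited called 2 (9.68%) and DESeq2 3 (16.6%), and 0 to 1 were called with 1 left out (1.34% to 6.89%). In SD 1 to 3 were called with 1 left out (6.43% to 19%). For the Mef2c f/f against WT response, GC and length correction called 1 (2.32%) and leaving out the 3 CS libraries 1 (4.04%). With 1 left out, 1 to 4 were called (0.175% to 25.2%).

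Deviations of same-numbered replicates correlated at -0.33 to 0.55 between WT CS and SD, 0.068 to 0.67 between CS and RS, -0.73 to 0.33 between SD and RS, 0.047 to 0.26 in Mef2c f/f and 0.069 to 0.15 in Mef2c-cKO. Each contrast had a pair below 0.1, so the numbers were not taken to pair samples. With the replicate block 1 gene, Arc, was called from WT CS to SD, where Vgf (1.95, adjusted p = 0.0509), Nptx2 (0.67, adjusted p = 0.0515), Npas4 (0.68, adjusted p = 0.0511) and Pcsk1 (-0.44, adjusted p = 0.0549) lost their calls in limma at changes near those without it. Of all genes 2.22% were called there with the block and 45.1% without it. The 3 calls from CS to RS had lower adjusted p-values, from 0.00048 for Npas4 to 0.00361 for Vgf, and 33.6% of all genes were called, against 17.5% without the block. The block called 1 of the 9 in Mef2c f/f (0.105% of all genes) and 0 for the Mef2c f/f against WT response (0 of 13106 genes). With it Npas4 in Mef2c-cKO turned to -0.37, and the Mef2c-cKO against Mef2c f/f responses of Bdnf, Nptx2 and Inhba to -0.16, -0.49 and -0.068.

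Signs turned as follows, and the cause was not tested. From WT CS to SD, Bdnf was 0.20 with CPM as deposited, 0.39 with GC and length correction and 0.093 without the 3 CS libraries, and Homer1 0.029 with the correction. From WT CS to RS with the correction, Arc was -0.094, Homer1 0.011 and Pcsk1 0.014, and without the 3 CS libraries Arc was -0.030 and Pcsk1 0.021. Bdnf from SD to RS was -0.0040 with the correction. For the Mef2c f/f against WT response, Nptx2 was 0.33 with the correction, and Inhba -0.034 and Scg2 -0.036 without the 3 CS libraries. Vgf between genotypes in SD was -0.11 with the correction. With 1 library left out, Nptx2 in Mef2c-cKO ran from -0.018 to 1.30, and between genotypes in CS Homer1 ran from -0.13 to 0.12 and Vgf from -0.060 to 0.56. Between genotypes in SD, Bdnf ran from -0.24 to 0.98, Npas4 from -0.33 to 0.38, Nptx2 from -0.0047 to 1.31 and Vgf from -0.067 to 0.21, and in the difference of those 2 responses Bdnf ran from -0.29 to 0.93, Nptx2 from -0.37 to 0.94 and Inhba from -0.13 to 1.14. The lowest of each of these 7 in SD and in the responses came without Mef2c-cKO SD replicate 6. Over the alternatives, DEGs among all genes ran from 287 to 6907 from WT CS to SD (5826 as analysed), 0 to 4279 from CS to RS (2232), 0 to 54 from SD to RS (3), 0 to 590 in Mef2c f/f (5), 1 to 25 in Mef2c-cKO (3), 171 to 2095 and 822 to 2447 between genotypes in CS (973) and SD (1927), 1 to 59 (1) for the difference of their responses, and 0 to 3426 (1983) for that of Mef2c f/f and WT.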
